A study of Mus musculus with 12 samples.

Results

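Colon tissue of mice given dextran sodium sulfate (DSS) was compared with colon tissue of mice that drank only water. The differences rest on 6 of the 12 arrays of the series, 3 labelled DSS colon tissue and 3 labelled control colon tissue. They cover 19938 genes, each read from 1 probe set that the platform table gives to exactly 1 gene. All mice of both groups were male wild-type C57BL/6 animals, 7 weeks old at the start and 8 weeks and 3 days old at sacrifice on day 10. The DSS group drank 4% DSS for 6 days and then water for 4 days, and the control group drank water throughout. Neither group received L-arginine (L-Arg). The model that gave the p-values was fitted over all 12 arrays, so its estimate of the spread also includes the control+L-Arg and DSS+L-Arg mice. Those mice drank water or 4% DSS for 6 days and then 1% L-Arg for 4 days. Each array (Affymetrix mouse Gene ST) carries RNA from a colon piece of a single mouse, so each value below is 1 mouse. The study's general methods combine a proximal and a distal piece. They also state that mice with severe weight loss were euthanized, so the day 10 samples are those of mice that had not been removed. Values are log2 signals after RMA normalization by the authors, and a difference of 1 is a 2-fold change.

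DSS is a sulfated polysaccharide that damages the lining of the colon when it is drunk. Bacteria then reach the tissue below, neutrophils and monocytes enter from the blood, and stromal cells and leukocytes release cytokines and proteases that open the matrix. When DSS is withdrawn, epithelial cells at the edge of the lesions spread and divide to close them. The samples here were taken in that later phase.

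Several arrays stood apart before any comparison was made. All 13 pan-epithelial markers measured lay above the 75th percentile of all genes on each of the 6 arrays, as did 16 of 19 absorptive colonocyte and 9 of 13 goblet cell markers. None of the 10 posterior Hox genes did. Control 2, however, carried transcripts of male accessory glands. Svs2 and Svs5, secretory proteins of the seminal vesicle, read 11.77 and 11.79 in control 2, against 4.71 and 4.80 in control 1, and 6.01 and 5.65 in DSS 1, the highest DSS values. In control 3 the prostate genes Tgm4 and Pbsn read 9.39 and 7.71, against 5.24 and 3.36 in control 1, and Pate14 was high in both (9.61 and 11.03). Of the 12 genes of this list none was called. Control 2 also differed in position markers: Hoxb13, a homeobox gene of the distal colon, read 7.42 there against 11.15 and 10.81 in the other controls, and 7.22, 9.09 and 8.91 in DSS mice 1, 2 and 3. Their part in the results was not tested. Without control 2, 7 of the named genes that were not called passed the threshold (Il1b, Ccl3, Il1a, Cela1, Reg3b, Zc3h12a and Znrf3). Such gains were not particular to control 2: they numbered 25, 8 and 8 without DSS 1, DSS 2 and DSS 3. Without control 1 and control 3 they numbered 1 and 0.

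In DSS colon, 359 genes (1.80% of those tested) were higher and 444 (2.23%) were lower than in control colon at a Benjamini-Hochberg adjusted p under 0.05 from limma. The genes that rose had a median log2 difference of 1.08 and started from a low level, with a median control signal of 6.60 against 7.07 over all genes. The genes that fell started from a higher signal, 8.77, and their median difference was -0.72. Among them, 195 rose and 112 fell by more than 2-fold, and 18 rose and 3 fell by more than 8-fold. By the rule of the study's methods applied to limma's p, an unadjusted p under 0.01 with a fold over 2, 263 genes (1.32%) were higher and 162 (0.813%) lower. The calls depended on single arrays. The model was refitted 12 times, each time without 1 array, and 99 of the higher and 75 of the lower genes were called in every such fit, while without control 3 alone 110 and 87 were called and without DSS 1 653 and 745. No gene was called in the opposite direction in any fit, but each fit kept all but 1 of the arrays, so a reversal was unlikely from the outset. The DSS and control values did not overlap in 4977 of the 19938 genes tested, so lack of overlap alone is weak evidence of a difference. In what follows, a gene called in all 12 fits is described as called throughout, and for other called genes whose values are given the arrays without which the call was lost are given, with the highest adjusted p.

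**Figure D1:**
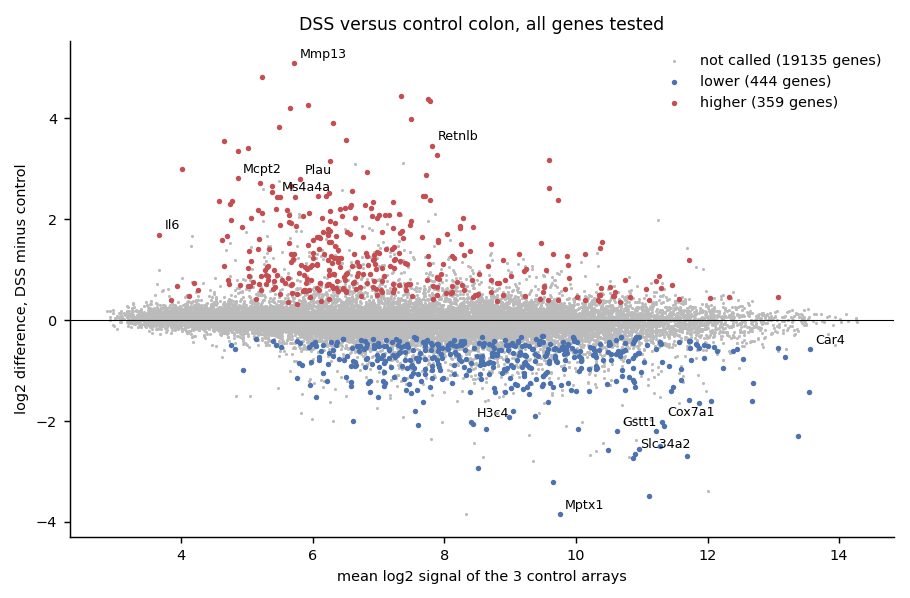
Log2 difference of DSS minus control (y axis) against the mean log2 signal of the 3 control arrays (x axis), 1 point for each of the 19938 genes, red where called higher (359), blue where called lower (444) and gray where not called. The red points lie mostly on the left, where control signals are low, and the blue points further to the right.

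Enzymes that digest the extracellular matrix held the largest rise of all genes. Of 22 matrix metalloproteinases (MMPs), related ADAMTS proteases and their TIMP inhibitors, 11 were higher, none was lower and 11 were not called, and the median difference was 0.89 beside -0.01 over all genes. Of the 11, 9 were called throughout. Mmp13, a collagenase, read 5.88, 6.04 and 5.21 in control mice 1, 2 and 3 and 10.86, 11.04 and 10.52 in DSS mice 1, 2 and 3. The groups stood far apart, a 34.1-fold difference of the means (SE 0.37 on the log2 scale, adjusted p = 7.72e-05). Mmp10, a stromelysin that also activates other MMPs, read 6.38, 6.29 and 6.12 in the control and 9.46, 9.84 and 8.99 in the DSS mice, a difference of 3.17 (SE 0.22, adjusted p = 5.75e-05). Mmp3, the related stromelysin, read 5.14, 4.96 and 4.93 in the control and 8.55, 8.91 and 7.78 in the DSS mice, a difference of 3.40 (SE 0.26, adjusted p = 0.000125). All 3 genes were called throughout, and in each the DSS 3 value was the lowest of the DSS mice, the opposite of the order of the neutrophil genes below.

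Mmp3, Mmp10 and Mmp13 lie close together on chromosome 9 and rose together, so the stretch of 120 bases that ends at the base before each transcription start is shown, from RefSeq on build GRCm38.p6, all on the plus strand. Capitals mark the letters TGANTCA, the core that AP-1 factors bind, which reads the same on both strands.
Mmp3, chr9:7445702-7445821: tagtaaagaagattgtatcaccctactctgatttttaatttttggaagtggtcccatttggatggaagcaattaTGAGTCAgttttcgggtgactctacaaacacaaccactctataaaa
Mmp10, chr9:7502222-7502341: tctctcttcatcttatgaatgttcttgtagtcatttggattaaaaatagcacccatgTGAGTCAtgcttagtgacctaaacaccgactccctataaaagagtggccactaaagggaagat
Mmp13, chr9:7272394-7272513: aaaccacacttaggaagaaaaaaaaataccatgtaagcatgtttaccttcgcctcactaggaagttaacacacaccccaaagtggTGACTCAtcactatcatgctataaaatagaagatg
The core begins 46, 63 and 35 bases before the start, in the same order. Of the 7 called members of this list with a window of 300 bases in the reference, 4 held TGANTCA (the fourth is Mmp12, a macrophage elastase), and of the 9 members that were not called, 1 did (Mmp7). Of the 19116 windows of genes tested 6.88% held it (7.81% of all 32851 windows), as did 9.70% of the 330 windows of genes that rose and 6.02% of the 465 windows of genes that fell. Counted by gene, as the members were, the shares were 8.06% of genes tested with a window, 11.9% of those that rose and 7.26% of those that fell. A match describes these letters and is not a measured binding site.

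The proteases of plasminogen activation rose with the MMPs. Plau, the urokinase that turns plasminogen into plasmin, had the lowest adjusted p of all genes, together with Ms4a4a below (4.51e-06). Its signal was 5.75, 5.77 and 5.88 in the control and 8.69, 8.72 and 8.37 in the DSS mice, and the difference of 2.79 had an SE of 0.14. Plat, the tissue-type activator, rose by 2.29 (SE 0.36, adjusted p = 0.00773) and was called throughout. The urokinase receptor gene Plaur was not called (8.12, 8.80 and 7.82 in the control and 8.40, 8.48 and 9.59 in the DSS mice). Of 20 matrix genes, 6 were higher and none lower. Lox, which cross-links collagen, rose by 2.08 and was called throughout, and Tnc (tenascin C) rose by 1.74 (call lost without control 1, control 2 or DSS 2, adjusted p up to 0.108). The fibrillar collagens Col3a1 and Col1a2 were not called, with differences of 0.66 and 0.53.

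**Figure D2:**
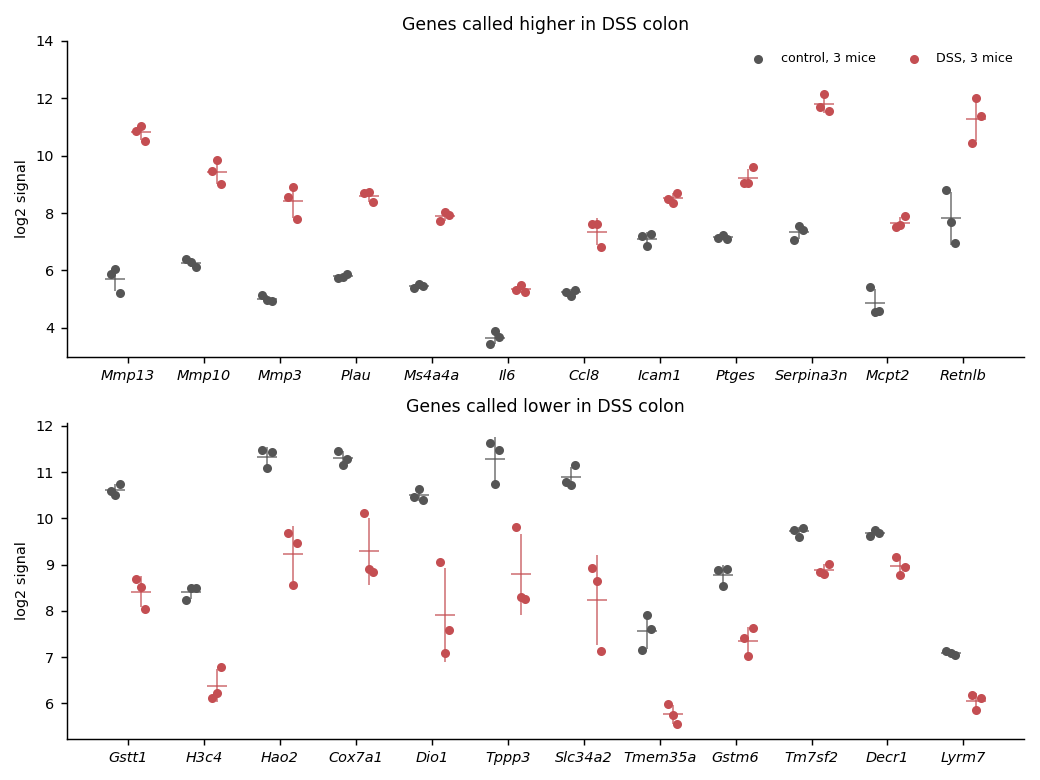
Log2 signal (y axis) of 12 genes called higher (upper panel) and 12 called lower (lower panel) in DSS colon, each point 1 mouse, gray for control and red for DSS, with horizontal marks for the mean and vertical bars for the SD (n = 3 mice per group). The groups do not overlap in any of these genes, and the DSS points of Dio1, Tppp3 and Slc34a2 are spread over more than 1.5 log2 units.

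Markers of neutrophils and macrophages were higher in DSS colon, by amounts that differed between the 3 mice. Of 17 neutrophil markers, 10 were higher and none lower, and of 16 monocyte and macrophage markers, 10 were higher and none lower. Of these, 3 neutrophil and 5 monocyte and macrophage markers were called throughout. In bulk tissue, more cells of a type and more RNA per cell cannot be told apart. S100a8, a subunit of calprotectin, read 5.95, 7.47 and 5.49 in the control and 10.01, 9.05 and 11.57 in the DSS mice, a difference of 3.91 (SE 0.63), and was called throughout. Control 2 was the highest control mouse, and DSS 3 exceeded DSS 1 and DSS 2. Mmp8, the neutrophil collagenase, read 4.34, 5.50 and 4.13 in the control and 7.89, 6.75 and 9.97 in the DSS mice, with the same order, and its call was lost without control 1 or control 3 (adjusted p up to 0.0655). Cxcr2, the receptor that draws neutrophils to CXC chemokines, read 4.56, 5.51 and 4.24 in the control and 6.60, 5.94 and 8.88 in the DSS mice and, with Mmp8 and Trem1, was among the called genes with the widest spread in DSS mice, while its call was lost without any control array, any control+L-Arg array or any DSS+L-Arg array (adjusted p up to 0.179). The probe set of Ly6g, a neutrophil surface marker from a family of close paralogs, did not follow this order, with 12.53, 8.81 and 12.40 in the control and 12.33, 13.70 and 13.69 in the DSS mice, and was not called.

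Over the macrophage list the median above the control mean ran from 0.92 in DSS 1 to 1.44 in DSS 3, and over the neutrophil list it was 1.46, 1.27 and 3.35 in DSS mice 1, 2 and 3. Ms4a4a, a membrane protein of macrophages, read 5.38, 5.52 and 5.44 in the control and 7.71, 8.04 and 7.95 in the DSS mice. Its difference of 2.45 had an SE of 0.12 and an adjusted p of 4.51e-06. Mpeg1 (perforin-2) rose by 2.13 and Cd68 by 1.62, both called throughout. C1qb, a chain of the complement starter C1q, rose by 1.55, but its call was lost without any control array, control+L-Arg 1, DSS 2, DSS 3, DSS+L-Arg 2 or DSS+L-Arg 3 (adjusted p up to 0.122). Lyz2, a lysozyme of myeloid cells, was not called (difference 1.30, adjusted p = 0.0856, groups without overlap).

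Fc receptors and the ITAM adaptors through which they signal rose as a group of 9 of 16, with none lower and a median difference of 1.77. Fcer1g, the shared gamma chain, read 7.20 to 8.14 in control and 9.42 to 11.18 in DSS mice, and Tyrobp (DAP12), the adaptor of TREM receptors, read 7.06, 7.46 and 7.39 in the control and 9.21, 8.87 and 10.11 in the DSS mice. Their differences were 2.46 (SE 0.38) and 2.10 (SE 0.28), both called throughout. Fcgr2b, the inhibitory IgG receptor, also rose, by 2.06. Trem1, an activating receptor of neutrophils and monocytes, rose by 2.72, but its call was lost without control 1, control 3, control+L-Arg 1, DSS+L-Arg 2 or DSS+L-Arg 3 (adjusted p up to 0.14), with control 2 at 6.23 against 4.75 and 4.58 in the other controls.

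Mucosal mast cell proteases rose in all 3 DSS mice. Mcpt2 read 5.42, 4.56 and 4.58 in the control and 7.51, 7.58 and 7.90 in the DSS mice, a difference of 2.81 (SE 0.31, adjusted p = 0.00149). Mcpt1, a chymase of intraepithelial mast cells, read 4.82, 4.36 and 5.02 in the control and 7.43, 6.33 and 7.36 in the DSS mice, a difference of 2.31 (SE 0.34). These were the only called members of 13 mast cell and eosinophil markers. Kit, the stem cell factor receptor that mast cells and pacemaker cells of the gut wall carry, read 8.91, 9.04 and 9.40 in the control and 9.04, 8.18 and 7.33 in the DSS mice and was not called. The lymphocyte lists gave no call, with 0 of 14 T and NK cell, 0 of 12 B and plasma cell and 0 of 11 dendritic cell and MHC class II genes. At these list sizes and a background of 1.80% and 2.23%, that is not a result about lymphocytes. Jchain, the joining chain of polymeric IgA, was lower without overlap (6.65, 7.76 and 7.11 in the control and 5.69, 5.91 and 5.44 in the DSS mice) and did not pass (adjusted p = 0.103).

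**Figure D3:**
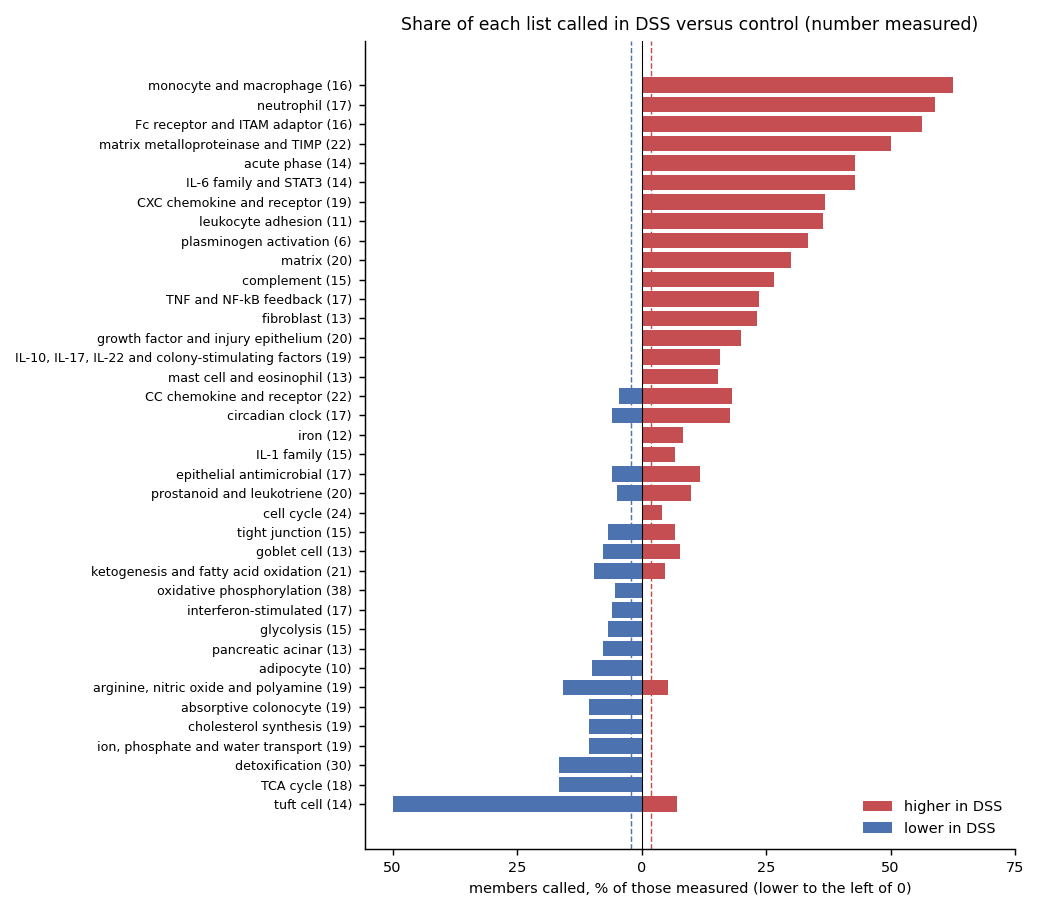
Members called higher (red, to the right) or lower (blue, to the left) in DSS colon as a percent of the members measured, for each list with at least 1 call and at least 6 members measured, the number measured in parentheses. The dashed lines mark the 1.80% and 2.23% of all genes that were called higher and lower, and the longest bars to the right are those of macrophage (10 of 16), neutrophil (10 of 17) and Fc receptor genes (9 of 16), while the longest to the left is that of tuft cell genes (7 of 14).

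Of 19 CXC chemokines and receptors 7 were higher and none lower, and of 22 CC chemokines and receptors 4 were higher and 1 lower. The called genes included receptors such as Cxcr2 and Ccr1, and the neutrophil attractant Cxcl3 was not called (adjusted p = 0.103). Ccl8, a monocyte attractant, read 5.25, 5.12 and 5.33 in the control and 7.61, 7.63 and 6.81 in the DSS mice and was called throughout (difference 2.12, SE 0.19). Cxcl5, an attractant made by epithelial cells, read 5.11, 5.30 and 5.07 in the control and 6.74, 7.43 and 7.87 in the DSS mice and its call was lost without any control array, DSS 2 or DSS 3 (adjusted p up to 0.112). Cxcl13, the B cell attractant, rose by 3.28 and its call was lost without any control array (adjusted p up to 0.068). The lower gene was Ccl6, which read 11.86, 12.03 and 12.25 in the control and 11.55, 10.00 and 9.74 in the DSS mice and its call was lost without any control array, control+L-Arg 1, DSS 2, DSS 3, DSS+L-Arg 2 or DSS+L-Arg 3 (adjusted p up to 0.135).

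In control 2 several genes lay close to or within the DSS range. Il1b, the interleukin-1 beta gene, read 5.27, 9.14 and 5.51 in control mice 1, 2 and 3 and 9.71, 8.40 and 11.09 in DSS mice 1, 2 and 3, and the groups overlapped. Ccl3 read 6.17, 10.06 and 5.88 in the control and 10.12, 8.66 and 12.66 in the DSS mice and Il1a read 4.54, 7.45 and 4.45 in the control and 7.84, 6.68 and 10.17 in the DSS mice, again with control 2 inside the DSS range. None of these 3 was called (adjusted p = 0.0779, 0.129 and 0.103). Cxcl2 did not overlap, but control 2 at 8.05 stood far above controls 1 and 3 (4.50 and 4.39) and its call was lost without control 1, control 3 or DSS 3 (adjusted p up to 0.0988). Ptgs2, the inducible cyclooxygenase, had the same pattern, with 6.58, 9.55 and 7.00 in control mice 1, 2 and 3 and 10.05 to 11.22 in the DSS mice, and its call was lost without control 1, control 3, DSS 2 or DSS 3 (adjusted p up to 0.108). Without control 2, Il1b, Ccl3 and Il1a had adjusted p values of 0.00615, 0.0237 and 0.0355. The same held for Reg3b, an antibacterial lectin (adjusted p = 0.129, and 0.0403 without control 2), and Zc3h12a, an RNase that limits cytokine mRNA (0.0512 and 0.0449). Zc3h12a also passed without DSS 1 (adjusted p = 0.00506).

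The interleukin-6 family and its STAT3 targets gave 6 higher and no lower genes of 14. Il6 read 3.44, 3.88 and 3.67 in the control and 5.33, 5.50 and 5.24 in the DSS mice, a low signal in both groups but without overlap, and the difference of 1.70 (SE 0.14, adjusted p = 0.00019) was called throughout. Il11, a related cytokine made by stromal cells, rose by 1.11 (SE 0.16), and Socs3, the feedback inhibitor that STAT3 induces, rose by 2.46 (SE 0.38), both called throughout. Osmr, the oncostatin M receptor, rose by 1.55 and its call was lost without control 1 or control 3 (adjusted p up to 0.0607), and its ligand Osm was not called (difference 0.85, adjusted p = 0.107). In the interleukin-10, interleukin-17 and colony-stimulating factor list 3 of 19 were higher, Il10ra, Csf3 and Il5, by 0.79, 0.71 and 0.47. For Il10ra its call was lost without any control array, any control+L-Arg array or any DSS+L-Arg array (adjusted p up to 0.142), for Csf3 its call was lost without any control array or DSS 2 (adjusted p up to 0.1), and for Il5 its call was lost without control 1 or control 2 (adjusted p up to 0.0943). Il10 itself was not called, with 8.44 in DSS 3 against 5.27 and 5.10 in the other DSS mice and 4.54 to 4.90 in controls.

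Of 17 genes of TNF signaling and NF-kB feedback 4 were higher. Icam1, the endothelial and epithelial ligand of leukocyte integrins, read 7.19, 6.86 and 7.27 in the control and 8.50, 8.35 and 8.69 in the DSS mice and was called throughout. The TNF receptors Tnfrsf1b and Tnfrsf1a rose by 1.37 and 0.49 (both lost their calls without any control array or DSS 2, adjusted p up to 0.108 and 0.111), and Tnf itself was just outside the threshold with 7.21, 7.30 and 6.56 in the control and 7.49, 8.55 and 9.33 in the DSS mice (adjusted p = 0.0503). On the side of vessels and leukocytes, Vcam1 rose by 1.09, called throughout, and the integrin chain Itgb2 by 1.66 (call lost without control 1 or control 3, adjusted p up to 0.114). Of 17 interferon-stimulated genes 1 was lower and none higher, beside 2.23% of all genes called lower, with a list median of -0.48. Relative to the control mean the median was -0.055, -0.662 and -0.372 in DSS mice 1, 2 and 3. The controls ranged from -0.263 to 0.219, so DSS 1 lay within their range. The lower gene was Irf7, a transcription factor of the interferon response, which read 11.56, 11.35 and 11.40 in the control and 10.68, 9.37 and 10.04 in the DSS mice and its call was lost without any control array or DSS 2 (adjusted p up to 0.0946).

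Acute-phase genes, complement and prostaglandin synthesis each contained genes that were called throughout. Of 14 acute-phase genes 6 were higher and 5 of these were called in all 12 fits. Serpina3n, a serine protease inhibitor, read 7.08, 7.55 and 7.40 in the control and 11.68, 12.15 and 11.54 in the DSS mice, and Lrg1, a secreted glycoprotein, read 7.21, 7.98 and 7.27 in the control and 10.45, 12.21 and 11.77 in the DSS mice. The serum amyloid gene Saa3 rose in every DSS mouse (11.95, 12.04 and 12.37 against 7.79, 8.38 and 7.07), whereas Saa1 was not called (8.14, 6.88 and 7.67 in the control and 7.58, 8.59 and 8.50 in the DSS mice). Of 15 complement genes 4 were higher. C1s1, a protease of the classical pathway, rose by 1.20 and Cfp, properdin, by 1.29 (both throughout), and C4b rose by 1.24 (call lost without any control array or DSS 2, adjusted p up to 0.106) and C3ar1 by 1.39 (call lost without control 1 or control 3, adjusted p up to 0.0656).
Ptges, the inducible prostaglandin E synthase, read 7.12, 7.25 and 7.11 in the control and 9.05, 9.05 and 9.60 in the DSS mice, a difference of 2.08 (SE 0.20, adjusted p = 0.000546). The prostaglandin E receptor Ptger3 fell by 0.76 and its call was lost without control 3 (adjusted p 0.0517), and the other 17 of the 20 prostanoid and leukotriene genes were not called.

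The epithelium did not move as 1 block. None of the 13 pan-epithelial markers was called, their median difference was -0.04, and their differences ran from -0.25 (Hnf4a, a transcription factor of the intestinal epithelium) to 0.25 (Cldn7, a claudin). Among 19 absorptive colonocyte markers 2 were lower. Car4, a carbonic anhydrase of the brush border, read 13.60, 13.46 and 13.62 in the control and 13.08, 12.84 and 13.03 in the DSS mice and its call was lost without control 3 (adjusted p 0.0588), and Ms4a12 fell by 1.18 (call lost without any control array, adjusted p up to 0.086). Aqp8, the water channel of surface colonocytes, was not called, and 1 mouse was far from the others: DSS 1 read 8.46, against 12.73 and 13.13 in DSS 2 and DSS 3 and 11.19 to 13.07 in controls. DSS 1 also had the lowest Hoxb13 signal of the 6 mice (7.22), beside control 2 (7.42), which had the lowest control value of Aqp8 (11.19). Whether the place of the colon piece moved these values was not tested.

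Of 13 goblet cell markers 1 was higher and 1 lower. Retnlb, an antibacterial protein that goblet cells secrete, read 8.80, 7.68 and 6.96 in the control and 10.45, 11.99 and 11.38 in the DSS mice, a rise of 3.46 (SE 0.49) that was called throughout. Clca1, a protease of the mucus, read 13.59, 13.45 and 13.59 in the control and 13.09, 12.07 and 11.19 in the DSS mice and fell by 1.42, but its call was lost without any control array, any control+L-Arg array, DSS 2 or any DSS+L-Arg array (adjusted p up to 0.135). The other 11 were not called, and the list's median relative to the control mean was lowest in DSS 3. Clca4b, another member of the CLCA family, read 9.59, 9.94 and 9.22 in the control and 11.73, 13.35 and 13.21 in the DSS mice and was called throughout. Slpi, a leukocyte elastase inhibitor of mucosal surfaces, read 6.99, 7.03 and 6.99 in the control and 7.89, 9.71 and 9.64 in the DSS mice and its call was lost without any control array, control+L-Arg 1, DSS 2, DSS 3 or DSS+L-Arg 2 (adjusted p up to 0.117).

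Tuft cells, the chemosensory cells of the epithelium, had the largest share of lower genes among the 53 lists, 7 of 14, with 1 higher and a median of -0.58. None of these genes was called throughout. Rgs13, a regulator of G protein signaling, read 8.10, 8.73 and 8.70 in the control and 6.85, 5.11 and 4.74 in the DSS mice, a difference of -2.94 (SE 0.58) (call lost without any control array or DSS 2, adjusted p up to 0.0839). Gnat3, the taste G protein gustducin, read 6.03, 6.75 and 7.05 in the control and 4.82, 4.72 and 4.31 in the DSS mice and Trpm5, the cation channel of taste signaling, read 7.11, 7.63 and 7.64 in the control and 6.75, 5.92 and 5.91 in the DSS mice. For Gnat3 its call was lost without control 3 (adjusted p 0.0655), and for Trpm5 its call was lost without control 2, control 3, DSS 2 or DSS 3 (adjusted p up to 0.0933). The higher member was Alox5ap, which activates 5-lipoxygenase and is also expressed by neutrophils and macrophages, with 6.72, 7.07 and 6.84 in the control and 8.58, 8.15 and 10.57 in the DSS mice (call lost without any control array, adjusted p up to 0.0931). None of 15 enteroendocrine genes was called, which at a background of 1.80% and 2.23% is not a result about these cells. Sst, somatostatin, was lower without overlap (11.01, 11.71 and 11.99 in the control and 10.55, 10.24 and 8.99 in the DSS mice) and missed the threshold (adjusted p = 0.0725). Lack of overlap adds little weight here, because 4977 of the 19938 genes tested showed it.

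Genes of nutrient and ion handling were among the largest decreases. Slc34a2, a sodium-phosphate cotransporter, read 10.79, 10.73 and 11.14 in the control and 8.94, 8.65 and 7.13 in the DSS mice, a difference of -2.65 (SE 0.43, adjusted p = 0.00817), and was called throughout. S100g, the calcium-binding protein calbindin D9k, read 10.94, 11.95 and 12.16 in the control and 9.39, 10.20 and 7.39 in the DSS mice and its call was lost without any control array, control+L-Arg 1, control+L-Arg 3, DSS 3 or DSS+L-Arg 1 (adjusted p up to 0.147). These were the 2 lower genes of 19 in the ion, phosphate and water transport list. Atp12a, the colonic proton-potassium pump, was not called, and its controls differed (11.68, 7.90 and 11.07, with control 2 low as for Hoxb13). Mptx1, a pentraxin of the colonic epithelium, had the same low control 2 value (10.96, 7.45 and 10.83 in the control and 5.36, 6.87 and 5.49 in the DSS mice) and its call was lost without control 1, control 3, control+L-Arg 1, control+L-Arg 3, any DSS array or any DSS+L-Arg array (adjusted p up to 0.184). Dio1, a deiodinase that activates thyroid hormone, read 10.45, 10.64 and 10.39 in the control and 9.05, 7.09 and 7.59 in the DSS mice, and Hao2, a peroxisomal hydroxy acid oxidase, read 11.48, 11.08 and 11.44 in the control and 9.68, 8.57 and 9.46 in the DSS mice, both called throughout. The tight junction genes gave 1 call in each direction, Cldn1 higher (0.88, call lost without any control array, any control+L-Arg array, DSS 2, DSS 3 or any DSS+L-Arg array, adjusted p up to 0.163) and Cldn23 lower (-0.80, call lost without any control array, control+L-Arg 1, DSS 2, DSS 3 or DSS+L-Arg 3, adjusted p up to 0.115).

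Enzymes of detoxification and of mitochondrial metabolism were lower in part, mostly by under 2-fold. Of 30 detoxification genes 5 were lower and none higher. Gstt1, a theta class glutathione transferase, read 10.60, 10.51 and 10.75 in the control and 8.68, 8.52 and 8.03 in the DSS mice, a difference of -2.21 (SE 0.18, adjusted p = 0.000162), and was called throughout. Gstm3, of the mu class, read 12.60, 12.57 and 12.84 in the control and 11.98, 10.60 and 10.61 in the DSS mice and its call was lost without control 3 (adjusted p 0.0656). Of 38 subunits of oxidative phosphorylation 2 were lower, Ndufa2 (-0.92) and Ndufa1 (-0.58), and of 18 TCA cycle enzymes 3 were lower, Ogdh, Fh1 and Suclg1, by 0.54, 0.46 and 0.37. Over all genes tested, 2.23% were called lower, and no member of these 2 lists was called throughout. The oxidative phosphorylation median lay at -0.105, -0.213 and -0.03 relative to the control mean in DSS mice 1, 2 and 3. The controls ranged from -0.03 to 0.02, so DSS 3 was at their edge. For Ndufa2 its call was lost without control 1 or control 3 (adjusted p up to 0.087), and for Ndufa1 its call was lost without any control array, control+L-Arg 1, DSS 1, DSS 2 or DSS+L-Arg 3 (adjusted p up to 0.133). For Ogdh its call was lost without any control array, control+L-Arg 1, DSS 2 or DSS 3 (adjusted p up to 0.114), for Fh1 its call was lost without any control array (adjusted p up to 0.0955), and for Suclg1 its call was lost without any control array, control+L-Arg 1, control+L-Arg 3, DSS 2, DSS 3 or any DSS+L-Arg array (adjusted p up to 0.165). Cox7a1, a muscle-type subunit of cytochrome oxidase that was outside that list, read 11.46, 11.15 and 11.28 in the control and 10.11, 8.91 and 8.83 in the DSS mice and was called throughout. Of 21 genes of ketogenesis and fatty acid oxidation, Decr1 and Acat1 fell by 0.71 and 0.64 and Acadl rose by 0.48. Decr1 was called throughout, for Acat1 its call was lost without control 1 or control 3 (adjusted p up to 0.0906), and for Acadl its call was lost without any control array, control+L-Arg 1, DSS 2 or DSS 3 (adjusted p up to 0.119). Lyrm7, an assembly factor of respiratory complex III, shared the lowest adjusted p after Gstt1 among the genes that fell with the histone gene H3c4, at 7.13, 7.09 and 7.04 in the control and 6.18, 5.86 and 6.12 in the DSS mice (adjusted p = 0.000546). In cholesterol synthesis 2 of 19 were lower, Tm7sf2 by 0.83 (throughout) and Dhcr7 by 0.72 (call lost without control 1 or control 3, adjusted p up to 0.0668).

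The genes of arginine, nitric oxide and polyamine metabolism, the pathway of the series, gave 1 higher and 3 lower genes of 19 in this list. Otc, ornithine transcarbamylase of the urea cycle, read 8.44, 8.68 and 8.78 in the control and 8.00, 6.00 and 5.45 in the DSS mice, with DSS 1 close to the controls, and its call was lost without any control array, any control+L-Arg array, DSS 2, DSS 3, DSS+L-Arg 2 or DSS+L-Arg 3 (adjusted p up to 0.135). Cps1, which makes the carbamoyl phosphate for Otc, read 8.18, 6.89 and 7.17 in the control and 5.88, 6.26 and 5.96 in the DSS mice and fell by 1.38, but its call was lost without control 3 or DSS 3 (adjusted p up to 0.0632). Gamt, the last enzyme of creatine synthesis, fell by 0.76 (call lost without any control array, control+L-Arg 3, DSS 2, DSS 3 or DSS+L-Arg 2, adjusted p up to 0.116), and Nos3, the endothelial nitric oxide synthase, rose by 0.32, a call lost in all 12 fits (adjusted p up to 0.154). Nos2, the inducible synthase, was counted in the antimicrobial list and read 6.84, 7.57 and 6.06 in the control mice, with every DSS mouse higher, a difference of 2.93 (call lost without control 1 or control 3, adjusted p up to 0.086). Arg1, the arginase of macrophages, was not called: DSS 3 read 8.40 and the other 5 mice lay between 5.61 and 6.54. The arginine transporters Slc7a1 and Slc7a2 (0.14 and 0.58), Arg2 (0.05), Odc1 (-0.57) and Oat (-0.78) were not called either. Slc7a11, the cystine-glutamate exchanger, rose by 2.66 and its call was lost without control 1 or control 3 (adjusted p up to 0.0991).

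Clock genes gave 3 higher and 1 lower call of 17. The clock is a feedback loop in which ARNTL and CLOCK switch on the Per, Cry and Ciart genes, whose products then inhibit them. Ciart, a repressor of that loop, read 6.53, 6.99 and 7.16 in the control and 8.76, 9.51 and 8.59 in the DSS mice, a rise of 2.06 (SE 0.27, adjusted p = 0.00302) called throughout. Per1 read 8.69, 8.91 and 8.52 in the control and 10.07, 11.06 and 9.51 in the DSS mice, Tef, a transcription factor at the output of the clock, rose by 0.86, and Arntl read 9.14, 8.79 and 8.82 in the control and 7.58, 8.34 and 7.85 in the DSS mice, a fall of 0.99. For Per1 its call was lost without control 1 or control 3 (adjusted p up to 0.105), for Tef its call was lost without any control array (adjusted p up to 0.0924), and for Arntl its call was lost without control 1 (adjusted p 0.0579). The hour of sacrifice is not given in the sources used here for any mouse, so it cannot be told apart from the group.
ARNTL and CLOCK bind the E-box CACGTG, which reads the same on both strands, so the 180 bases before 1 start of each gene that rose are shown, from RefSeq on GRCm38.p6, with that motif in capitals. The start shown was picked because its window held the motif. Per1 had 2 windows, of which 1 held it, and both of the 2 windows of Tef did. Ciart is on the minus strand and the others are on the plus strand.
Ciart, chr3:95882229-95882408: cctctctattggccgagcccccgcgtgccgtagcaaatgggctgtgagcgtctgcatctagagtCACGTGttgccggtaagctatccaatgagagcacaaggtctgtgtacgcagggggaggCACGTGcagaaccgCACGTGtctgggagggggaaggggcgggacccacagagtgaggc
Per1, chr11:69098769-69098948: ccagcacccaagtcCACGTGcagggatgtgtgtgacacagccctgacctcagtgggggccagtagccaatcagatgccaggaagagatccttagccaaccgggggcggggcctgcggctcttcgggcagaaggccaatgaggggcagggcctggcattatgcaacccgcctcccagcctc
Tef, chr15:81802493-81802672: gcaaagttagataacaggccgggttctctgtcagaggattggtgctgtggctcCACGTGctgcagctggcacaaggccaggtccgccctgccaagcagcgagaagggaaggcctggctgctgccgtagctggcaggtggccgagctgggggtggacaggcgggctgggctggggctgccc
Ciart held 3 copies, at 116, 58 and 44 bases before its start. All 3 genes that rose held the motif in a window, Arntl, the gene that fell, did not, and 2 of the 11 that were not called and had a window did (Cry1 and Bhlhe41). Of the windows of genes tested 8.26% held CACGTG (7.15% of all windows), and 10.3% of those of genes that rose and 9.46% of those of genes that fell did. Counted by gene, as the members were, the shares were 9.52% of genes tested with a window, 11.9% of those that rose and 10.3% of those that fell. These are descriptions of the letters and not of binding.

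The cell division genes showed how much the DSS mice differed from each other. Of 24 genes 1 was called, and relative to the control mean the list's median was 0.09, -0.99 and 0.89 in DSS mice 1, 2 and 3 (-0.22 to 0.18 in the controls). Kif11, a mitotic motor, read 7.15 in DSS 2 and 9.48 in DSS 3, below and above the control range of 8.50 to 8.99. The called gene was Rrm2, a subunit of ribonucleotide reductase, which was high in both of these mice (8.50, 8.10 and 8.13 in the control and 9.11, 10.54 and 10.70 in the DSS mice) and its call was lost without control 3 (adjusted p 0.0656). DSS 1 was nearest to the controls in 297 of the 444 genes that fell and in 172 of the 359 that rose, whereas DSS 3 was farthest in 200 of the genes that rose and DSS 2 in 229 of those that fell. The median SD was 0.15 in DSS and 0.10 in control mice over all genes, 0.21 and 0.13 over the genes that fell, and 0.36 and 0.15 over the genes that rose.

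**Figure D4:**
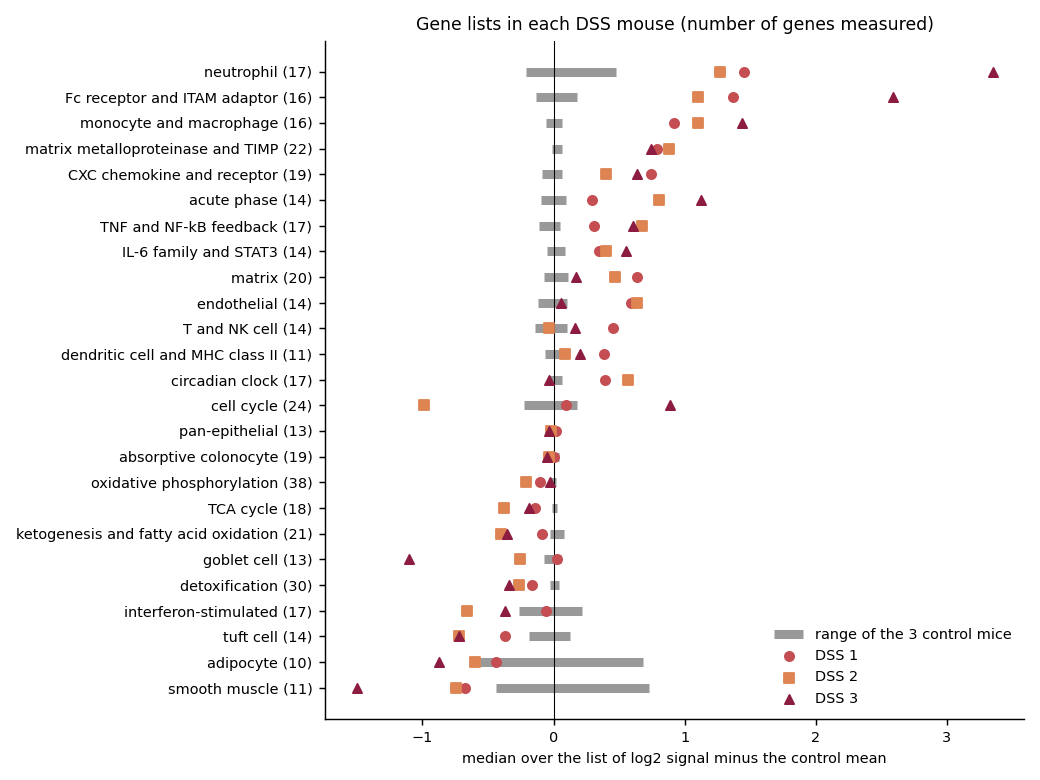
Median over each gene list of the log2 signal minus the control mean (x axis) in DSS 1 (circle), DSS 2 (square) and DSS 3 (triangle), with the range of the 3 control mice as a gray bar and the number of genes measured in parentheses. Neutrophil genes are farthest in DSS 3 (3.35 against 1.46 and 1.27), MMP genes lie between 0.74 and 0.88 in the 3 mice, and cell cycle genes lie on opposite sides of 0 in DSS 2 and DSS 3.

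Of 13 fibroblast markers 3 were higher: Dcn (decorin) read 10.37, 10.48 and 10.36 in the control and 12.13, 12.34 and 11.36 in the DSS mice, Pdpn (podoplanin) rose by 1.27 and Pdgfra by 1.34. Pdpn was called throughout, for Dcn its call was lost without control 3 (adjusted p 0.055), and for Pdgfra its call was lost without any control array, control+L-Arg 1, DSS 1, DSS 2 or any DSS+L-Arg array (adjusted p up to 0.145). In a mixed list of growth factors and genes of injured epithelium 4 of 20 were higher, Hgf, Fgf7, Inhba and Anxa1, the last of which is annexin A1 and no growth factor. Hgf, hepatocyte growth factor, was higher with 5.34, 5.46 and 5.21 in the control and 6.91, 7.12 and 6.22 in the DSS mice, called throughout, and Inhba, an activin subunit, rose by 1.64 (call lost without control 1 or control 3, adjusted p up to 0.0839). Fgf7, keratinocyte growth factor, rose by 1.15 (call lost without control 1, control 2 or DSS 2, adjusted p up to 0.107) and Anxa1 by 1.27 (call lost without control 2 or control 3, adjusted p up to 0.0526). None of 14 endothelial and none of 11 smooth muscle markers was called. At these list sizes and a background of 1.80% and 2.23%, that is not a result about these cells. For 13 of the 14 endothelial markers the DSS mean lay above the control mean. The endothelial median relative to the control mean was 0.59, 0.64 and 0.06 in DSS mice 1, 2 and 3. In the controls it ranged from -0.115 to 0.103. The smooth muscle median relative to the control mean was -0.68, -0.74 and -1.50 in DSS mice 1, 2 and 3 and a range of -0.44 to 0.73 in the controls. Actg2, gut smooth muscle actin, was lower without overlap, a difference of -1.52 (adjusted p = 0.0901). Car3, a carbonic anhydrase of fat and muscle and the only called gene of 10 adipocyte markers, read 9.63, 11.16 and 8.14 in the control and 7.11, 5.93 and 6.28 in the DSS mice and its call was lost without control 1, control 2, control+L-Arg 3, DSS 2, DSS 3, DSS+L-Arg 2 or DSS+L-Arg 3 (adjusted p up to 0.114). Clps, pancreatic colipase, fell by 2.55 (10.90, 10.57 and 11.40 in the control and 9.43, 8.73 and 7.06 in the DSS mice, call lost without control 1 or control 3, adjusted p up to 0.0906), while none of the other 12 pancreatic acinar markers was called. Among these, Cela1, an elastase, differed by -1.22 (adjusted p = 0.0945, and 0.0326 without control 2).

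Over all 53 gene lists, 835 genes were measured, of which 108 were higher and 38 lower. Over all genes tested, 1.80% were called higher and 2.23% lower. The lists were chosen with earlier results of these data known, so the list counts are descriptions and not a result about the lists. No gene was called among 15 crypt stem cell and Wnt target genes, 12 markers of enteric neurons and glia, 12 hypoxia genes, 16 genes of amino acid and ER stress or 10 skeletal muscle markers, whose medians lay between -0.30 and 0.13. At these list sizes and that background, the lack of calls is not a result about these genes. Znrf3, a Wnt target, differed by -0.54 (adjusted p = 0.0986, and 0.0486 without control 2). Among 12 iron genes, the metalloreductase Steap4 rose by 1.21 (call lost without control 1, control 3, control+L-Arg 1, control+L-Arg 3, DSS 2, DSS 3, DSS+L-Arg 2 or DSS+L-Arg 3, adjusted p up to 0.142), among 15 glycolysis genes, the muscle-type phosphofructokinase gene Pfkm fell by 0.58 (call lost without control 1 or control 3, adjusted p up to 0.089), and among 15 genes of the interleukin-1 family, the decoy receptor gene Il1r2 rose by 2.65 (call lost without control 1 or control 3, adjusted p up to 0.0906).

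**Figure D5:**
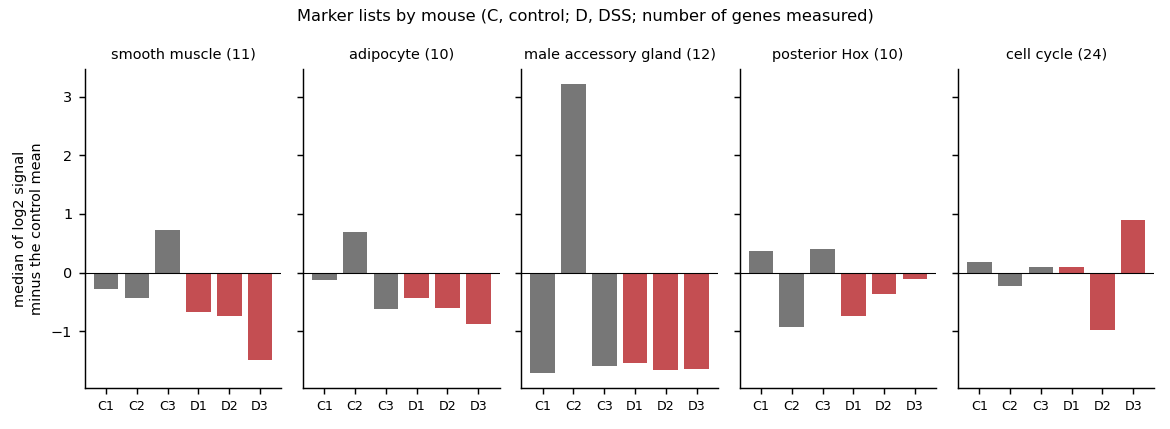
Median of the log2 signal minus the control mean (y axis) for smooth muscle, adipocyte, male accessory gland, posterior Hox and cell cycle genes in each control (C1 to C3, gray) and DSS mouse (D1 to D3, red), 1 bar per mouse. Control 2 stands at 3.22 in the accessory gland genes and at -0.92 in the Hox genes, control 3 at 0.73 in smooth muscle, and DSS 2 and DSS 3 at -0.99 and 0.89 in the cell cycle genes.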

How the data were processed

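Total RNA from a piece of colon of each mouse was hybridized to Affymetrix mouse Gene ST arrays. Per the labels, the authors made the deposited log2 values with RMA in Affymetrix Expression Console 1.1 (background correction, quantile normalization and probe summary over all 12 arrays), and the submitters' notes name genome build mm9. Of 35556 probe sets, 21789 had exactly 1 gene in the platform annotation, 1621 had several and 12146 were not listed and were left out. The probe set with the highest mean over all arrays stood for its gene. Groups and replicate numbers came from the sample titles.

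The DSS minus control contrast was fitted with limma 3.58.1 in R 4.3.3, with a mean per group over all 12 arrays, which then share 1 estimate of the spread (8 residual degrees of freedom), and Benjamini-Hochberg adjustment over 19938 genes. The pipeline was tested on simulated data. The study selected genes by SAM at p under 0.01 with a fold over 2, and limma's unadjusted p with the same fold, SAM, the 2 groups alone, a replicate block, other scalings, a filter on dim genes, array weights and fits without each array were tried as alternatives. Precision is limited by 3 mice per group. Other tables used Python 3.11.15 with pandas 2.3.3 and matplotlib 3.10.9.

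The members and the gene lists were chosen with earlier results of these data known. Named genes were, per direction, the 25 largest called differences without overlap and the 5 lowest adjusted p, per list up to 4 called and 2 uncalled members and those against the list's direction, the 5 widest and 5 narrowest among DSS mice, the genes the methods chose for RT-PCR, and members of the arginine and other-tissue lists. Promoters came from RefSeq on GRCm38.p6 and were joined to genes by Entrez identifier.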

Additional observations from a re-analysis of the deposited data

How the results depend on the processing

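No called difference of a named gene reversed under any alternative. The alternatives used the same DSS and control arrays, or all but 1 of them, so a reversal was unlikely from the outset. The number of called genes depended on the estimate of the spread and on single mice. With only the 2 groups in the fit, 87 genes were higher and 62 lower, of which 83 and 60 were also called with all 12 arrays. Leaving out 1 array at a time gave 110 to 653 higher and 87 to 745 lower genes, and 210 to 340 and 127 to 269 under the rule of unadjusted p under 0.01 with a fold over 2, which gave 263 and 162 with all arrays. Without control 1, control 2 and control 3 the counts were 127, 215 and 110 higher and 135, 257 and 87 lower, without DSS 1 they were 653 and 745, and without DSS 2 they were 321 and 225. SAM called 243 genes higher and 176 lower at the study's rule. After adjustment it called 0, a count that was fixed by the design. Its null pooled all splits of the arrays of the 2 groups, including the true split and its mirror image. No adjusted p could therefore pass 0.05, so the 0 cannot show how the calls depend on the method.

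With the replicate number as a block, 340 genes were higher and 429 lower (255 and 167 under the 2-fold rule), of which 303 and 346 were shared. The labels do not say that the numbers pair the mice. The deviations of same-numbered control and DSS mice from their group means correlated at -0.24, -0.10 and -0.04. These values cannot decide whether mice were paired, because mice with different numbers were not compared. Median centring, further quantile normalization, the filter on dim genes, the mean of probe sets, the trended and robust prior and array weights gave 339 to 433 higher and 367 to 514 lower genes, and the median over all genes stayed between -0.04 and 0.02. Signal of 1 tissue piece per mouse, an unknown position along the colon and the accessory gland transcripts in control 2 and control 3 limit what 3 arrays per group can show.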

Other observations

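The gene groups in this section were put together after the values had been seen, so their counts are descriptions, read beside the 1.80% and 2.23% of all genes that were called higher and lower. In the mu class glutathione transferases, Gstm1, Gstm2, Gstm3, Gstm4, Gstm6 and Gstm7 fell and Gstm5 was not called, with a group median of -0.97. For Gstm1 (difference -0.74) its call was lost without any control array, any control+L-Arg array, DSS 2, DSS 3, DSS+L-Arg 2 or DSS+L-Arg 3 (adjusted p up to 0.148), and for Gstm3 its call was lost without control 3 (adjusted p 0.0656). Gstm6 read 8.89, 8.54 and 8.90 in the control and 7.41, 7.02 and 7.62 in the DSS mice and Gstm2 fell by 1.00, both called in all 12 fits that left out an array. These genes are close paralogs, and probes that read more than 1 of them were not separated here. The breakdown of branched-chain amino acids and propionate, a mitochondrial pathway, held 11 lower and no higher genes of 24 measured, 23 of them below the control mean. Pcca, a subunit of propionyl-CoA carboxylase, read 9.44, 9.26 and 9.41 in the control and 8.62, 8.39 and 8.66 in the DSS mice, and Hibch, an enzyme of valine breakdown, fell by 0.94 and Ivd, the first dehydrogenase of leucine breakdown, by 0.69, all called in all 12 fits. Of 32 histone cluster genes 6 were lower and none higher, with H3c4 at 8.23, 8.49 and 8.50 in the control and 6.12, 6.23 and 6.79 in the DSS mice and H1f3 lower by 1.23, and the group's median relative to the control mean was -0.12, -0.68 and 0.04 in DSS mice 1, 2 and 3.

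In the MS4A family of membrane proteins, 4 of 19 measured rose, Ms4a4a, Ms4a6b, Ms4a6c and Ms4a6d. Ms4a12, 1 of the colonocyte markers above, fell (call lost without any control array, adjusted p up to 0.086). The other 14 were not called, among them Ms4a8a, the member with the highest signal (difference -0.02). Ms4a6d read 5.23, 5.67 and 5.24 in the control and 7.89, 7.31 and 8.57 in the DSS mice and Ms4a6c rose by 2.44, both called in all 12 fits, as was Ms4a6b. Of 25 genes of retinoid handling 2 rose and 3 fell. Aldh1a3, which makes retinoic acid, rose by 2.35 (call lost without control 1 or control 3, adjusted p up to 0.0629), and Rdh5, a retinol dehydrogenase, fell by 0.60 (all 12 fits). Of 51 small nucleolar RNA genes 7 were higher and none lower, and 46 lay above the control mean, with a median of 0.31. Snora33 read 6.93, 6.72 and 6.62 in the control and 8.38, 8.91 and 7.90 in the DSS mice, and its call was lost without control 3 (adjusted p 0.0615). Among 1027 olfactory receptor genes, 2 were higher and 1 lower.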
